A study of Mus musculus with 12 samples.

Results

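The 32 mouse genes described here encode glutamate receptors and the proteins that hold them in place at the excitatory synapse. They were chosen by symbol and matched to the Ensembl identifiers of the deposited count tables, which together list 55638 genes, and all 32 were found and passed the filter on low counts in both comparisons. The set holds 16 ionotropic subunits (4 AMPA, 6 NMDA, and 6 kainate or delta), 6 metabotropic receptors, 5 scaffold proteins, both main forms of CaMKII and 3 TARP auxiliary subunits. RNA was sequenced from the pericontusional tissue, the brain tissue around the injury, of adult male C57BL/6J wild-type mice. Traumatic brain injury (TBI) was made by controlled cortical impact, a piston strike to the exposed cortex. In the batch of 2018, 3 TBI libraries taken 7 days after injury were set against 3 sham libraries from mice that had the same surgery without the impact. In the batch of 2022, all mice had TBI: 3 libraries came from mice labelled only as TBI, which the study describes as given vehicle, and 3 from mice given zileuton, an inhibitor of 5-lipoxygenase, at 10 mg per kg per day by intraperitoneal injection in corn oil from 30 min after the impact. The library names put these 6 at 7 days, although for zileuton the source names read 7, 8 and 9 days. Total counts were 42929862 to 48684674 per library in 2018 and 27845562 to 35453257 in 2022. Of the counts from 1 to 20 in a 2018 library, 62.3% to 64.4% were even, so a read pair may have been counted as 2 in 2018 and those totals may exceed the fragments sequenced.

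Glutamate is the main excitatory transmitter of the brain. AMPA receptors carry the fast current, NMDA receptors admit calcium and gate plasticity, kainate receptors modulate transmission, and metabotropic receptors signal through G proteins. Scaffold proteins of the postsynaptic density tie these receptors to each other and to CaMKII, the kinase that strengthens synapses, and TARPs carry AMPA receptors to the membrane and tune their gating.

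Upstream sequence from RefSeq on GRCm38.p6, a build older than the GRCm39 that the submitters name, was found for 20 of the 32 genes. The 250 bases before the transcription start are shown for 3 genes that the results turn on, 2 AMPA subunits that fell after TBI and the 1 gene of the set that rose. They are chr3:80802836-80803085 (minus strand) for Gria2, chr9:4796235-4796484 (minus strand) for Gria4 and chr11:115267244-115267493 (minus strand) for Grin2c. Capitals mark matches, on either strand, to the core of the RE1 element that the neuronal repressor REST reads or to the GC box that Sp1 reads (GGGCGG), and no capitals mean no match.
Gria2: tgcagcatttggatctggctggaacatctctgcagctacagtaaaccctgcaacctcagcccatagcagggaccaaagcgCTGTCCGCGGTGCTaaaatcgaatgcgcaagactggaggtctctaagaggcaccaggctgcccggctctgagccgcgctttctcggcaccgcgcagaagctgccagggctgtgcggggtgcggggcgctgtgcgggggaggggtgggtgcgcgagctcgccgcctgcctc
Gria4: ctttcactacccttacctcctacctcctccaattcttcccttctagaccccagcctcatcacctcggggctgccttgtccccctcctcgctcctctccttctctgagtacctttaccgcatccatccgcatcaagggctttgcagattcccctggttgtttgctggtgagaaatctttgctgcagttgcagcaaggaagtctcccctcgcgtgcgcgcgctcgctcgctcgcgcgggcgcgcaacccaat
Grin2c: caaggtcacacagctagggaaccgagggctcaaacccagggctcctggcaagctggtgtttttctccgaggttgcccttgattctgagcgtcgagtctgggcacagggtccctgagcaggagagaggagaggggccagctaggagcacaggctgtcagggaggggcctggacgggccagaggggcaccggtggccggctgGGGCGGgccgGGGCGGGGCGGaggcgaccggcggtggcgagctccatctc
The RE1 core stood 170 to 157 bases before the Gria2 start, and 15 of 32851 mouse promoters (0.0457%) held it. Gria2 was the 1 gene among the 20 with a match. The GC box, which appears 3 times in the Grin2c sequence with 2 of the matches overlapping, was present in 12 of 26 promoters of the set and in 32.7% of all promoters. Neither the cAMP response element TGACGTCA (1.55% of all promoters) nor TATAAA (12.4%) was found in the 26 promoters of the set. Their median GC content was 62.4%, against 52.4% over all promoters.

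A part of the set was lower after TBI. Of the 32 genes, 16 fell and 1, Grin2c, rose at an adjusted p-value under 0.05 in edgeR's quasi-likelihood test, and 15 did not pass. Over all 19536 genes tested, 11.2% were lower and 16.8% were higher at the same threshold. The median log2 fold change of the 32 genes was −0.34, where the genes tested as a whole had 0.02. Of the 32, 30 were negative, where 51.5% of all genes tested were positive. The TBI libraries lay wholly below the sham libraries for 18 genes and wholly above them for 1, where 19.8% and 24.6% of all genes did so. In bulk tissue, fewer neurons and less RNA per neuron cannot be told apart. Of 15 neuron markers, 11 fell, with a median log2 fold change of −0.35, and their summed level was 11507 to 12195 CPM (counts scaled to library size, with TMM factors) in the sham libraries and 7836 to 9485 CPM in the TBI libraries. The genes of the set stood on both sides of the neuron markers, between 0.49 below their median (Cacng3) and 0.65 above it (Grin2c) on the log2 scale. The genes are well expressed and long. Their median level lay at the 89.1th percentile of the genes tested, and the median length that the deposited FPKM imply was 8.22 kb, against 3.73 kb for all genes tested. The median log2 fold change of all genes was 0.10 in the shortest 10% and −0.13 in the longest 10%.

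**Figure D1:**
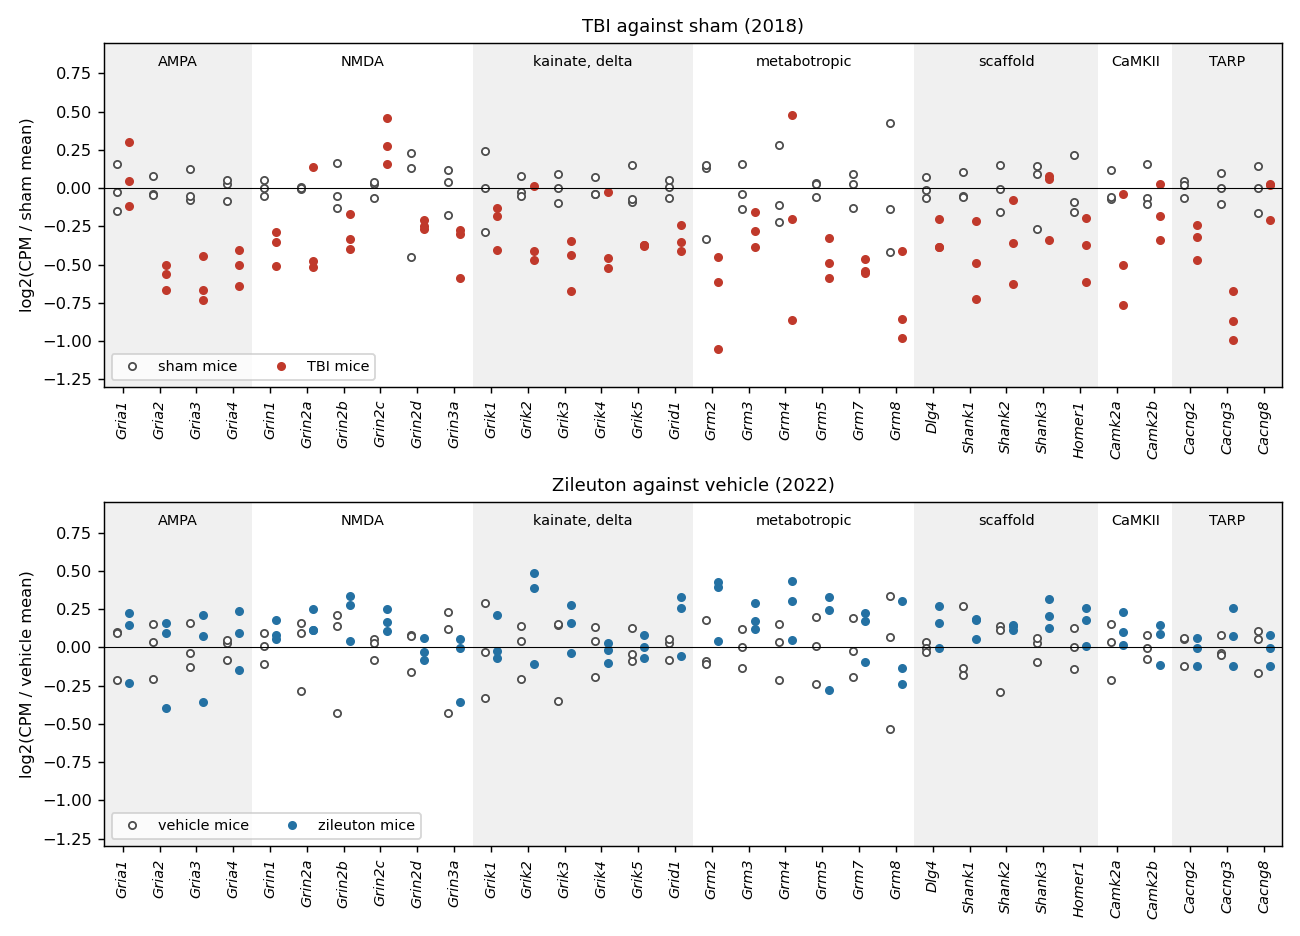
Each point is 1 library, plotted as log2 of its CPM over the mean CPM of the control group (sham in the upper panel, vehicle in the lower), with the 32 genes on the horizontal axis grouped by class. In the upper panel the TBI libraries of 18 genes lie wholly below the sham libraries and those of Grin2c lie wholly above, whereas in the lower panel the groups overlap for 30 genes.

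The AMPA receptor subunits divided, with Gria2, Gria3 and Gria4 lower and Gria1 not. Gria2 (ENSMUSG00000033981) encodes the subunit that makes the receptor impermeable to calcium, and lies at chr3:80681450-80802835 on GRCm38 in GENCODE M21. It counted 840, 773 and 770 CPM in the sham libraries and 560, 501 and 537 CPM in the TBI libraries. The groups did not overlap, and the log2 fold change was −0.58 (SE 0.0792, edgeR adjusted p = 0.000951), a fall of 32.9%. Gria3, which lies on the X chromosome, went from 330, 286 and 291 CPM to 191, 182 and 223 CPM, a log2 fold change of −0.61 (SE 0.0975, adjusted p = 0.00213). Gria4 went from 131, 134 and 122 CPM to 90.9, 82.7 and 97.4 CPM, a log2 fold change of −0.51 (SE 0.0813, adjusted p = 0.00202). All 3 kept their call in each of 19 other fits, 6 of which left out 1 library. Gria1, the subunit most tied to activity-driven receptor insertion, stood at 381, 308 and 335 CPM in sham and 421, 352 and 314 CPM in TBI. Its groups overlapped and its log2 fold change was 0.09 (95% interval −0.19 to 0.36, adjusted p = 0.641), an interval that does not reach the estimates of the other 3 subunits.

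Per unit of length, Gria1 and Gria2 were close in the sham libraries, at 55.4 ± 5.75 and 50.1 ± 2.22 FPKM (counts scaled to library size and gene length, SD, n = 3), and their library ranges overlapped. In the TBI libraries Gria1 stood at 61.1 ± 9.17 FPKM and Gria2 at 34.8 ± 1.47 FPKM, with no overlap. This order depends on the lengths that the FPKM imply, 6.04 kb for Gria1 and 15.5 kb for Gria2. In CPM, which is not scaled to length, Gria2 was above Gria1 in every sham and every TBI library. The share of Gria2 in the summed FPKM of the 4 subunits was 31.5%, 32.9% and 32.2% in the sham libraries and 25.8%, 26.4% and 27.7% in the TBI libraries. This difference of −5.57 percentage points had a two-sided exact permutation p of 0.1, the smallest that 3 against 3 allows, and 0.6 adjusted over the 6 shares tested. It lay between −6.11 and −5.15 points whichever library was left out.

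**Figure D2:**
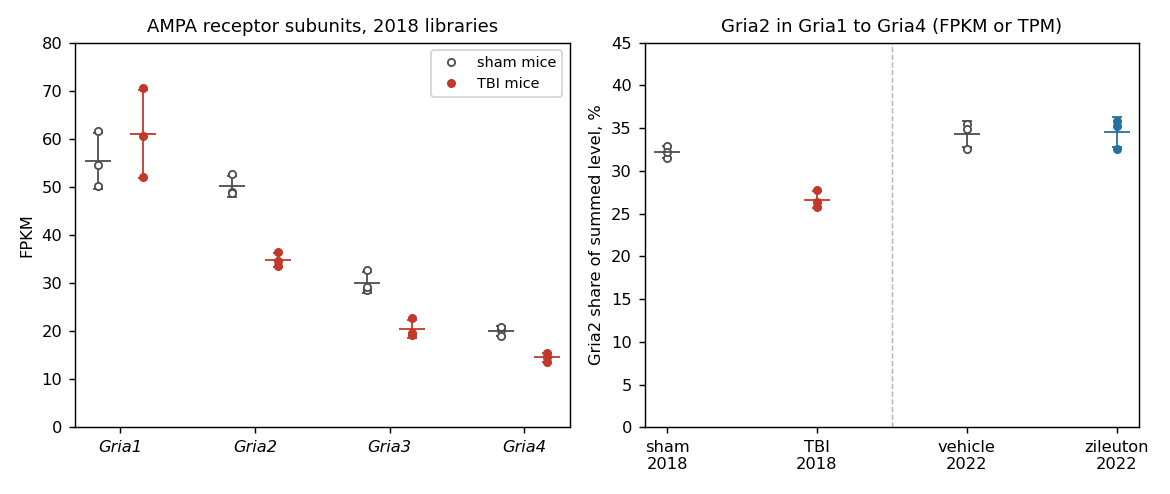
Left, FPKM of the 4 AMPA receptor subunits in the 2018 libraries, and right, the percentage of their summed FPKM (2018) or TPM (2022) that was Gria2. Points are libraries and bars are the mean and SD of 3. Gria2, Gria3 and Gria4 are lower in TBI and Gria1 overlaps, and the Gria2 share is near 32.2% in sham, 26.6% in TBI, 34.3% with vehicle and 34.6% with zileuton, where levels of 2018 and 2022 were normalized separately.

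The NMDA receptor subunits held both directions. Grin1, the obligatory subunit of every NMDA receptor, went from 347, 335 and 359 CPM to 284, 243 and 272 CPM, and fell by 0.38 on the log2 scale (SE 0.0806, edgeR adjusted p = 0.00827). Its exons share 1307 bases with Grin1os on the opposite strand, and whether counting used the strand was not given in the sources used here. Genes on the opposite strand also share 49 to 643 exon bases with Grin2b, Grin2c, Grin2d, Grm7, Shank1, Shank3 and Cacng2. Grin3a, which lowers calcium entry when it joins the receptor, fell by 0.38 (adjusted p = 0.0359), a call lost in 11 of 19 other fits. Grin2c rose. This subunit, best known from cerebellar granule cells and also found in astrocytes, lies at chr11:115249169-115267243 and counted 37.8, 40.2 and 40.6 CPM in sham and 44.2, 54.3 and 47.9 CPM in TBI. The groups did not overlap and the log2 fold change was 0.30 (SE 0.0922, adjusted p = 0.0383). The call was lost in 12 of 19 other fits, and without sham replicate 1 the adjusted p was 0.142. Astrocyte markers moved in the same direction, with 9 of 10 higher. Their summed level was 5626 to 6398 CPM in sham and 10301 to 10564 CPM in TBI. Thalamic neuron markers also did, with 4 of 6 tested higher. Their sums were 63.9 to 74.5 CPM in sham and 127, 291 and 108 CPM in TBI replicates 1, 2 and 3, highest where Grin2c was highest. Other glial and vascular lists rose as well. The part of these lists in the Grin2c value was not tested. Grin2a and Grin2b, the main partner subunits of the adult forebrain, did not pass, with log2 fold changes of −0.25 (adjusted p = 0.277) and −0.30 (0.0559). Grin2b did pass in 6 of 19 other fits, among them DESeq2 (adjusted p = 0.0137), which made more false calls than edgeR on simulated counts. Grin2a was even in sham, at 152, 151 and 151 CPM, and uneven in TBI, at 167, 109 and 106 CPM. TBI replicate 1 was the high library, and without it Grin2a passed (adjusted p = 0.0022). The share of Grin2a in the summed FPKM of Grin2a and Grin2b was 30.3 ± 2.11% in sham and 30.5 ± 3.77% in TBI (exact permutation p = 0.8). Grin2d, a subunit of interneurons, had a log2 fold change of −0.24 (adjusted p = 0.338, with 1 of 19 other fits passing) and was among the lowest of the set at 1.90 ± 0.453 FPKM in sham.

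Of the kainate and delta receptor subunits, Grik3, Grik5 and Grid1 fell. Grik5, a high-affinity subunit that needs a partner, was the most abundant of the 6 at 39.8 ± 3.92 FPKM in sham, and went from 197, 199 and 232 CPM to 162, 161 and 161 CPM (log2 fold change −0.37, SE 0.0814, edgeR adjusted p = 0.00948). Grik3, a low-affinity subunit, went from 127, 112 and 120 CPM to 75.1, 88.4 and 94.2 CPM, a log2 fold change of −0.48 (SE 0.0967, adjusted p = 0.0067). Grid1, a delta receptor that binds synaptic organizers and not glutamate, fell by 0.33 (adjusted p = 0.0127). The two-sample test on FPKM lost all 3 calls (adjusted p = 0.064, 0.0908 and 0.0708 for Grik3, Grik5 and Grid1), and Grid1 also lost its call in limma without a filter (0.0653) and without sham replicate 3 (0.0502). In these 3 genes no TBI library reached the lowest sham library. Grik1, Grik2 and Grik4 had log2 fold changes of −0.24, −0.27 and −0.32 with adjusted p-values of 0.306, 0.14 and 0.116, and Grik4 passed in 2 of 19 other fits. Grik2 stood at 65.5, 64.2 and 70.2 CPM in sham and 50.2, 67.2 and 48.2 CPM in TBI, and TBI replicate 2 alone lay among the sham libraries. Without that library Grik2 passed at an adjusted p of 0.00648. Striatal neuron markers, at 676, 2461 and 791 summed CPM in TBI, and thalamic neuron markers, at 127, 291 and 108 summed CPM, were also highest in TBI replicate 2. So were inhibitory neuron markers (1013, 1142 and 992 CPM) and oligodendrocyte markers (9426, 11487 and 6320 CPM). Oligodendrocyte precursor and choroid plexus markers were highest there too, whereas neuron and excitatory cortical markers were lowest there. The part of these lists in the Grik2 value was not tested.

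The metabotropic receptors had the lowest medians beside the AMPA subunits, with 4 of 6 lower and a class median of −0.49 on the log2 scale, against −0.54 for the AMPA class. Grm5, the postsynaptic receptor that couples to calcium release, went from 224, 210 and 223 CPM to 156, 174 and 146 CPM (log2 fold change −0.46, SE 0.0833, edgeR adjusted p = 0.00371). Grm7, a presynaptic brake on release, went from 47.3, 55.2 and 52.9 CPM to 37.5, 35.5 and 35.3 CPM (log2 fold change −0.52, SE 0.0832, adjusted p = 0.0021). Neither gene overlapped between the groups, and both kept their call in 19 other fits, except Grm5 in the equal-variance two-sample test on FPKM (adjusted p = 0.0513). Grm2, an autoreceptor of glutamate terminals, fell by 0.68 (SE 0.173, adjusted p = 0.0183), from 53.4, 38.8 and 54.2 CPM to 35.7, 23.5 and 31.9 CPM. Its call was lost in 4 of 19 other fits: without sham replicate 1 (adjusted p = 0.0657), without sham replicate 3 (0.0655), in limma without a filter (0.0927) and in the two-sample test (0.129), and its exons share 470 bases with an antisense gene. Grm8, another presynaptic receptor, fell by 0.73 (SE 0.224, adjusted p = 0.0399), although its highest TBI library (17.5 CPM) reached its lowest sham library (17.4 CPM). That call was lost in 10 of 19 other fits. Grm3, which astrocytes express as well as neurons, had a log2 fold change of −0.27 (adjusted p = 0.0691) with no overlap between the groups, and passed in 4 of 19 other fits. Grm4 was the most scattered gene of the set, at 20.8, 22.4 and 29.4 CPM in sham and 13.3, 33.7 and 21.1 CPM in TBI, with a log2 fold change of −0.09 (95% interval −0.75 to 0.57). As with Grik2, its high library was TBI replicate 2, where striatal, thalamic, inhibitory, oligodendrocyte, oligodendrocyte precursor and choroid plexus markers were highest. Their part in the Grm4 value was not tested.

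**Figure D3:**
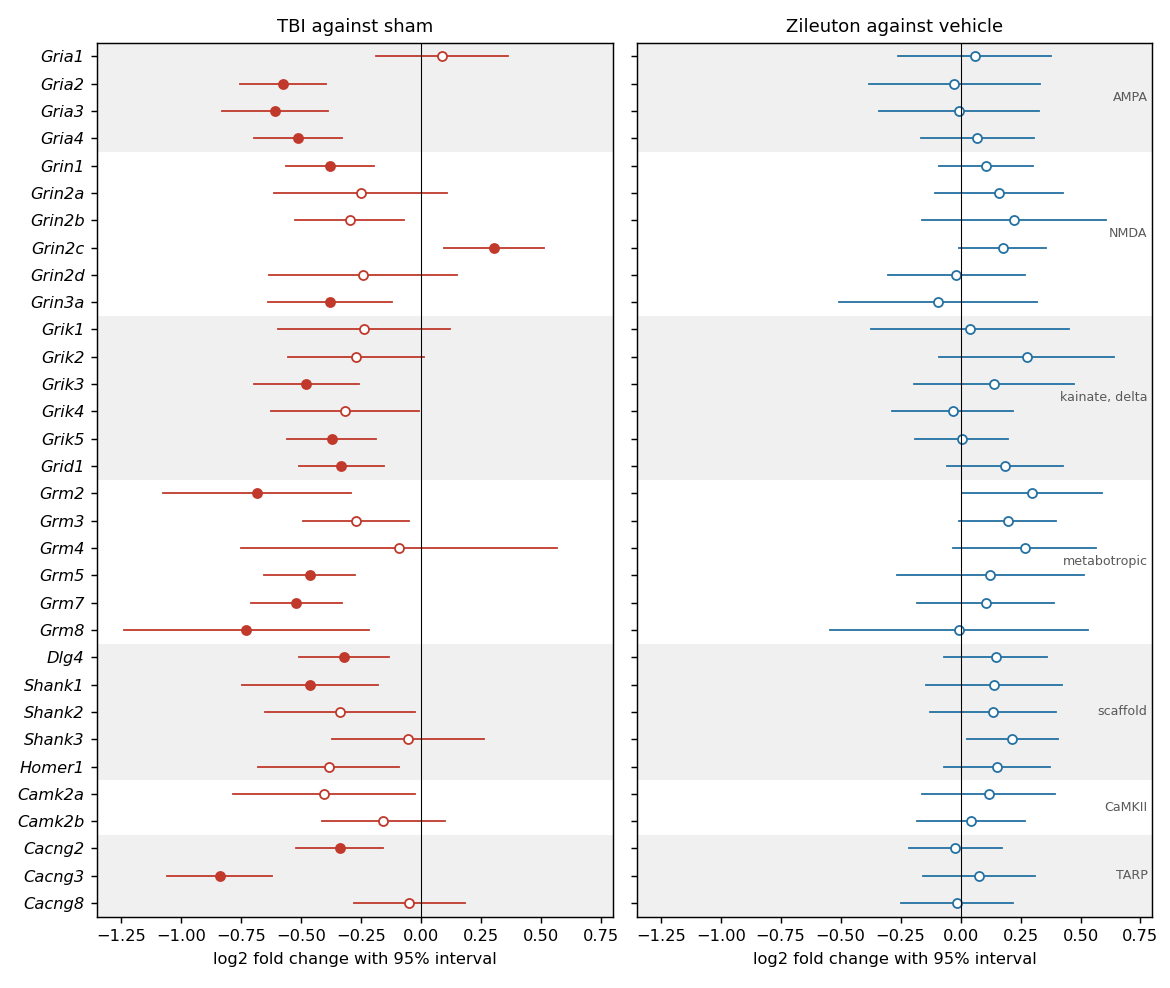
Log2 fold change of each of the 32 genes with its 95% interval from edgeR, for TBI against sham (left) and zileuton against vehicle (right), grouped by class. Filled points passed an adjusted p of 0.05: 16 below 0 and Grin2c above 0 on the left, and 0 on the right.

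Of the scaffold proteins, Dlg4 and Shank1 fell. Dlg4, which encodes PSD-95, the scaffold that anchors NMDA receptors and TARPs, went from 645, 668 and 708 CPM to 586, 515 and 517 CPM (log2 fold change −0.32, SE 0.0831, edgeR adjusted p = 0.0199). Shank1, a scaffold of the deeper layer of the density, went from 453, 504 and 449 CPM to 404, 283 and 333 CPM (log2 fold change −0.46, SE 0.125, adjusted p = 0.0242). The groups did not overlap for either gene, but the Dlg4 call was lost in 6 and the Shank1 call in 5 of 19 other fits. Homer1, which links Shank proteins to metabotropic receptors, had a log2 fold change of −0.39 (adjusted p = 0.0539) and also had separate groups, at 215 to 279 CPM in sham and 157 to 209 CPM in TBI. It passed in 6 of 19 other fits, among them DESeq2 (adjusted p = 0.0103). Shank2 had a log2 fold change of −0.34 (adjusted p = 0.102) and passed in 2 of the 19. Shank3 stood at 195, 260 and 252 CPM in sham and 249, 246 and 186 CPM in TBI, a log2 fold change of −0.05 (95% interval −0.37 to 0.26, adjusted p = 0.814).

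Camk2a, the most abundant gene of the set at 508 ± 39.9 FPKM in sham, did not pass (log2 fold change −0.40, edgeR adjusted p = 0.105). It counted 3669, 4197 and 3713 CPM in sham and 3754, 2275 and 2721 CPM in TBI, so that TBI replicate 1 lay within the sham range and the other 2 TBI libraries lay below it. Without TBI replicate 1 Camk2a passed (adjusted p = 0.00614), as it did in 2 of the other fits. Camk2b, the second CaMKII form, had a log2 fold change of −0.16 (adjusted p = 0.343), and the share of Camk2a in the summed FPKM of the pair was 85.1 ± 1.92% in sham and 82.5 ± 2.81% in TBI (exact permutation p = 0.3). TBI replicate 1 was the highest TBI library for 17 of the 32 genes and TBI replicate 2 the lowest for 18. Hippocampal neuron markers summed to 1460, 1178 and 759 CPM in TBI replicates 1, 2 and 3, against 983 to 1315 CPM in sham. Neuron markers summed to 9485, 7836 and 9079 CPM in the same order, and excitatory cortical markers to 1877, 1331 and 1846 CPM. Both of these lists were highest in TBI replicate 1 and lowest in TBI replicate 2. Striatal, thalamic and inhibitory neuron markers were instead highest in TBI replicate 2. The part of these lists in the values of the set was not tested. The count of genes of the set called lower was 19 without TBI replicate 1 and 12 without sham replicate 3, the highest and lowest of the 6 fits that left out 1 library.

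The TARP auxiliary subunits showed the largest fall of the set and also a gene with almost no difference. Cacng3 (TARP gamma-3), at chr7:122670492-122769393, went from 124, 108 and 116 CPM to 63.7, 58.4 and 72.7 CPM. Every TBI library was lower than every sham library, and the log2 fold change was −0.84 (SE 0.0963, edgeR adjusted p = 0.000347), a fall of 44.1%. It kept its call in all 19 other fits, with −0.93 to −0.77 when 1 library was left out. Cacng2 (stargazin, TARP gamma-2) went from 77.3, 83.3 and 81.8 CPM to 68.4, 58.5 and 64.7 CPM (log2 fold change −0.34, adjusted p = 0.0133, a call lost in 1 of 19 other fits). Cacng8 (TARP gamma-8), best known from the hippocampus, stood at 55.7, 49.7 and 61.4 CPM in sham and 56.5, 48.1 and 56.7 CPM in TBI, a log2 fold change of −0.05 (95% interval −0.28 to 0.18, adjusted p = 0.766), and its sign turned in 7 other fits. Per unit of length, Cacng3 was above Cacng8 in sham (41.1 ± 2.67 and 23.3 ± 2.46 FPKM), and in TBI the 2 genes differed by less than the SD of either (23.8 ± 2.28 and 23.3 ± 1.74 FPKM).

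Related genes that are not in the set were read from 3 further lists, beside the 11.2% of all genes lower and 16.8% higher. Of 28 other scaffold and signalling proteins of the density, 21 fell and 1 rose, with a median log2 fold change of −0.37. Cnksr2, a Ras-pathway scaffold, fell by 0.79 (edgeR adjusted p = 0.00136). Arc, the activity-induced regulator of AMPA receptor uptake, fell by 1.26 (adjusted p = 0.0228), from 249, 548 and 217 CPM to 184, 111 and 127 CPM, with sham replicate 2 far above the others. Homer3, a relative of Homer1, rose by 1.50 on the log2 scale (adjusted p = 0.00162) from a low level of 4.46 ± 0.689 CPM. Of 15 other receptor and auxiliary subunits tested, 2 fell (Gsg1l, −0.57, and Neto1, −0.52, auxiliary subunits of AMPA and of kainate and NMDA receptors) and 1 rose (Cacng5, 0.96, adjusted p = 0.04, with overlapping groups), with a median of −0.20. Grm6 did not pass the filter. Of 14 genes of glutamate release, uptake and recycling, 2 fell and 4 rose, with a median of −0.09. Slc1a1, the neuronal glutamate transporter, fell by 0.39 on the log2 scale (adjusted p = 0.00833). The 2 largest rises were glial genes, the glutamine transporter Slc38a3 (0.91, adjusted p = 0.00173) and the astrocyte glutamate transporter Slc1a3 (0.51, adjusted p = 0.00525).

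**Figure D4:**
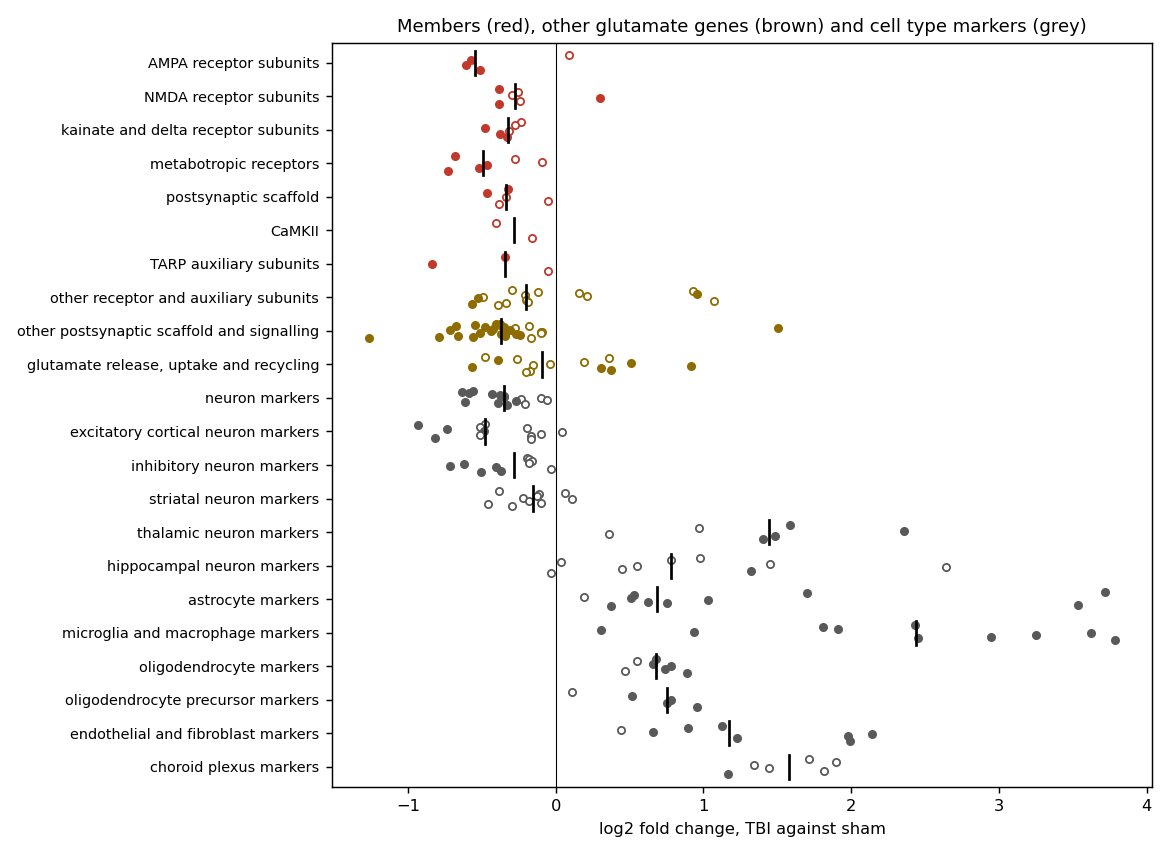
Each point is the log2 fold change of 1 gene, TBI against sham, in the classes of the set (red), the further glutamate lists (brown) and the cell type markers (grey), filled where the adjusted p was under 0.05. Black bars are medians, which lie below 0 for every class of the set and above 0 for all glial and vascular marker lists. Slc17a7, Slc17a6, Slc1a2, Slc1a3 and Glul stand in both a glutamate list and a marker list.

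The injury labels were checked with Gfap, the astrocyte filament, and Cd68, the lysosomal marker of activated microglia, which rose by 3.72 and 3.62 on the log2 scale (edgeR adjusted p = 5.67e-06 and 1.29e-05). Microglia and macrophage markers summed to 288 to 335 CPM in sham and 1296 to 1890 CPM in TBI, and all 10 rose. Of the other marker lists, 5 of 7 for oligodendrocytes, 4 of 5 for oligodendrocyte precursors, 7 of 8 for endothelial cells and fibroblasts, 4 of 6 tested for thalamic neurons, 1 of 9 for hippocampal neurons and 1 of 6 for choroid plexus rose, while 4 of 12 for excitatory cortical neurons, 5 of 10 for inhibitory neurons and 0 of 10 for striatal neurons fell (for striatal neurons 0 also had an unadjusted p under 0.05). The thalamic sum was 63.9 to 74.5 CPM in sham and 108 to 291 CPM in TBI. Although only 1 hippocampal marker passed, 8 of 9 were higher and 1 lower, with a median log2 fold change of 0.78. Their sums overlapped, at 983 to 1315 CPM in sham and 759 to 1460 CPM in TBI. All 6 choroid plexus markers were higher, with a median of 1.58, where 51.5% of all genes tested were higher. No list had a marker at 0 in all libraries. What these shifts contribute to the values of the 32 genes was not tested.

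Zileuton against vehicle asked whether inhibition of 5-lipoxygenase after TBI was accompanied by other levels of these genes. None of the 32 passed an adjusted p of 0.05, and none of all 17363 genes tested did (0.0%) with edgeR, whereas DESeq2 called 28 genes, with 0 of the 32 among them. At an unadjusted p under 0.05 there were 2 of the 32 (6.25%), beside 6.83% of all genes tested (1186 genes). Of the 32 genes 24 were higher with zileuton, where 50.7% of all genes tested were. The median log2 fold change of the 32 was 0.11 where that of all genes was 0.00. The groups were separate for 2 genes, both higher, where 6.51% of all genes were separate and higher.

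Shank3 stood at 206, 211 and 189 CPM with vehicle and 220, 251 and 232 CPM with zileuton, a log2 fold change of 0.22 (95% interval 0.03 to 0.41, unadjusted p = 0.0296, edgeR adjusted p = 0.713). Grm2 stood at 37.2, 31.0 and 30.5 CPM with vehicle and 43.2, 33.9 and 44.1 CPM with zileuton, a log2 fold change of 0.30 (SE 0.127, unadjusted p = 0.0473, adjusted p = 0.713). Grin2c was the other gene with separate groups, at 35.9 to 39.5 CPM and 41.0 to 45.3 CPM (log2 fold change 0.18, unadjusted p = 0.0555). The gene of each class with the highest mean TPM, a level scaled to gene length, did not pass at an unadjusted p under 0.05. Their log2 fold changes were 0.06 for Gria1 (95% interval −0.26 to 0.38), 0.11 for Grin1 (−0.09 to 0.30), 0.00 for Grik5 (−0.19 to 0.20), 0.20 for Grm3 (−0.01 to 0.40), 0.15 for Dlg4 (−0.07 to 0.36), 0.12 for Camk2a (−0.16 to 0.39) and 0.08 for Cacng3 (−0.16 to 0.31). The other 22 genes lay between −0.10 (Grin3a) and 0.28 (Grik2). The Gria2 share of the 4 AMPA subunits was 34.3 ± 1.54% of summed TPM with vehicle and 34.6 ± 1.71% with zileuton (exact permutation p = 0.7). The Grin2a share was 28.8 ± 1.60% and 27.9 ± 1.91% (exact p = 0.6), the Camk2a share was 69.8 ± 2.26% and 71.0 ± 1.43% (exact p = 0.7), and all 3 had an adjusted p of 0.8 over the 6 shares tested.

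The values of the set in this comparison changed when the gene length trend was removed and when single libraries were left out. Whether fold change follows length among the 32 genes was not tested. Across all genes tested, the log2 fold change rose with length (Spearman's rho 0.377 over genes that are no independent replicates of each other), from a median of −0.15 in the shortest 10% of genes to 0.13 in the longest 10%, whereas after TBI rho was −0.115. Of the 32 genes, 30 were longer than the median gene. With the length trend removed from each library, the median of the set was 0.02, 20 of the 32 genes were higher and 0 had an unadjusted p under 0.05. With the trends of length and GC content both removed, the median was also 0.02, 18 genes were higher and 3 had an unadjusted p under 0.05. One vehicle library, replicate C, was the lowest of its group for 28 of the 32 genes, and zileuton replicate A was the lowest of its group for 26. Without vehicle replicate C the median of the set was 0.02 and 0 genes had an unadjusted p under 0.05, and without zileuton replicate A the median was 0.17 and 6 genes did. That count was 4 without vehicle replicate A and 1 without zileuton replicate B or C. Summed neuron markers were lowest in the same libraries, at 8162 CPM in vehicle replicate C and 8292 CPM in zileuton replicate A, against 9033 to 9416 CPM in the other 4. Excitatory cortical markers were lowest of their group in vehicle replicate C (1448 CPM) but highest of their group in zileuton replicate A (1574 CPM). Microglia and macrophage markers were highest of their group in both, at 1805 and 1720 CPM. The part of these lists in the values was not tested.

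**Figure D5:**
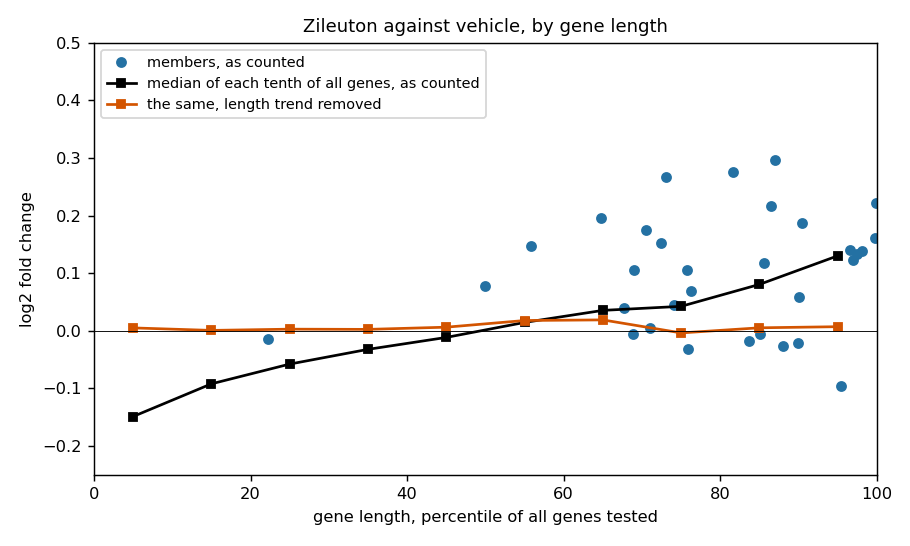
Log2 fold change, zileuton against vehicle, against the length percentile of the gene among all genes tested. Blue points are the 32 genes, black squares the medians of 10 bins of all genes by length, as counted (from −0.15 to 0.13), and orange squares the same medians after the length trend was removed.

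The 2 comparisons share no library, so their values can be set side by side. Of the 16 genes that fell after TBI, 11 were higher with zileuton (median log2 fold change 0.09), and of the other 16 genes 13 were (median 0.14). Of all genes tested, 50.7% were higher, and these counts come from the fit that kept the gene length trend. The genes with the largest falls after TBI, Cacng3, Gria3 and Gria2 among those that held in every fit, had zileuton values of 0.08, −0.01 and −0.03.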

How the data were processed

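RNA-seq libraries of mouse brain were analysed in 4 groups of 3, one comparison per batch. The authors deposited whole-number counts for 2018, with FPKM that follow from the count, the library total and a gene length. For 2022 the authors deposited estimated counts, of which 86.3% of values were whole, and TPM. The submitters' processing notes name HISAT2, Subread, featureCounts, DESeq2 and GRCm39 without roles, and the strand setting was not given in the sources used here. The kit captured poly(A) RNA and made paired-end libraries. Every column with values per library was used, and 0 were left aside. The 2022 columns carry numbers that the labels do not, so those libraries are named A, B and C within their group. The tables hold no comparisons by the authors.

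Estimated counts were rounded, since raw counts had been planned for. Counts were tested with edgeR 4.0.16 in R 4.3.3 (TMM, filterByExpr, quasi-likelihood F test), with Benjamini-Hochberg adjustment across 19536 genes in 2018 and 17363 in 2022. The biological coefficient of variation was 0.174 and 0.149. Standard errors are the log2 fold change over the square root of the F statistic. Shares used two-sided exact permutation tests (scipy 1.17.1). Figures were drawn with matplotlib 3.10.9. On simulated counts, edgeR called 59.2% of 98 genes changed 2-fold and 99.0% of 99 changed 4-fold for TBI against sham (19197 genes, 3.70% of calls false), and 71.4% of 98 and 91.8% of 97 for zileuton against vehicle (17139 genes, 3.64% false).

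The 32 genes and all lists were chosen with earlier results of these data known. All 32 are described after TBI. For zileuton, the named genes are those with an unadjusted p under 0.05 and the most abundant of each class, and Grin2c was added after its values were seen. Of each glutamate list the 2 largest called rises and falls are named, except 1 gene that is not reported here. Each group's libraries are taken as separate mice (n = 3 per group, as the study states), and p-values measure the spread between them. The alternatives used size factors from DESeq2, library totals alone, no filter, a minimum of 10 counts in each library, DESeq2 1.42.0, limma 3.58.1 on log2(value + 1) or log2(value + 0.1) of FPKM or TPM with and without a minimum mean of 0.5, an equal-variance two-sample test on FPKM or TPM (the study's kind of test), a replicate block, removal of trends with gene length and GC content, counts divided by 2 (2018), shares from counts, and each library left out. The equal-variance test was called here at a Benjamini-Hochberg adjusted p under 0.05, whereas the study states a p under 0.05 and names no adjustment. Its counts are therefore not those of the study's criterion. Coordinates are from GENCODE M21 on GRCm38 and upstream sequences from RefSeq on GRCm38.p6.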

Additional observations from a re-analysis of the deposited data

How the results depend on the processing

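After TBI, the median of the 32 genes stayed negative throughout (-0.39 to -0.30 with a library left out). The number of genes of the set called lower moved from 16 to 10 with limma on log2(FPKM + 1) without a filter and to 6 with the equal-variance two-sample test on FPKM, which called 2625 of all genes, where edgeR called 2193 lower and 3286 higher. With a library left out it was 12 to 19, and all genes called were 3848 to 4956. The number called higher went from 1 to 0 with DESeq2 size factors, no filter, limma without a filter, the two-sample test, the replicate block, the length trend or the length and GC trends removed, and was 0 to 1 with a library left out. Genes near 0 changed sign. Cacng8 was 0.0017 with library totals and with the two-sample test, 0.0040 with limma (pseudocount 1, with and without the filter), 0.0043 with pseudocount 0.1, 0.0085 without sham replicate 3 and 0.026 without TBI replicate 2. Gria1 was -0.0047 without sham replicate 2 and -0.035 without TBI replicate 1, Shank3 was 0.00080 without sham replicate 2 and 0.070 without TBI replicate 3, and Grm4 was 0.053 without sham replicate 3 and 0.18 without TBI replicate 1. With a library left out these reached as low as -0.15 for Cacng8, -0.18 for Shank3 and -0.50 for Grm4, and as high as 0.18 for Gria1. The Grin2a share difference was -0.97 points without sham replicate 1 and -1.96 without TBI replicate 1, and at most 1.40 with a library left out. The causes were not tested.

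With zileuton, all genes called went from 0 to 4 without a filter, 28 with DESeq2, 4 with limma on log2(TPM + 1) and 3 with pseudocount 0.1, and were 0 with each library left out. Genes with an unadjusted p under 0.05 went from 1186 to 729 with the replicate block, 773 with the length trend removed and 740 with both trends removed, and were 689 to 1909 with a library left out. Those of the set went from 2 to 1 with library totals and with at least 10 counts, 4 with limma at either pseudocount and 0 with the length trend removed, and were 0 to 6 with a library left out. Grik5 was -0.0065 with library totals, -0.0014 without a filter, -0.028 with the length trend and -0.023 with both trends removed, and -0.039 without vehicle replicate A, -0.018 without vehicle C and -0.034 without zileuton B. Gria1 was -0.037 and -0.066 with the length and with both trends removed, -0.041 without vehicle replicate C and -0.033 without zileuton B. Cacng3 was -0.018 without zileuton replicate C. The highest values with a library left out were 0.07 for Grik5, 0.19 for Gria1 and 0.17 for Cacng3. The Gria2 share difference was -1.17 points from counts, -0.61 without vehicle replicate C, -0.086 without zileuton B and -0.36 without zileuton C, and at most 1.24 with a library left out.

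Shared numbers of replicates or columns gave no sign of pairing, although 3 libraries a group are too few to exclude it. Deviations from the group means correlated at -0.02, -0.09 and -0.03 in 2018 and at -0.28, 0.06 and -0.28 in 2022, and the replicate block gave 15 of the 32 genes lower and 0 higher after TBI. With 3 libraries a group, changes under 2-fold are the least surely recovered, and bulk tissue does not give levels per cell.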

Other observations

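In the zileuton comparison, 23 of the 28 other scaffold and signalling genes were higher, with a median log2 fold change of 0.09, as were 11 of the 14 genes of glutamate release, uptake and recycling (median 0.05) and 8 of 14 other receptor and auxiliary subunits tested (median 0.04). Of all genes tested, 50.7% were higher. None of the genes in these lists passed an adjusted p of 0.05 in edgeR. At an unadjusted p under 0.05 the first list held Nlgn3 (0.23) and Iqsec1 (0.21), a neuroligin and an exchange factor of the density, and the second held the glutamine transporter Slc38a1 (0.25) and the astrocyte glutamate transporter Slc1a2 (0.29). Whether the gene length trend of all genes bears on these lists was not tested. Neuron markers had a median of -0.04 in this comparison, excitatory cortical markers -0.11, inhibitory 0.10, striatal 0.24, thalamic -0.02, hippocampal 0.16, astrocyte -0.02, microglia and macrophage -0.18, oligodendrocyte 0.32, oligodendrocyte precursor 0.10, endothelial and fibroblast -0.07 and choroid plexus 0.82. Choroid plexus markers summed to 11.9 to 1057 CPM with vehicle and 15.4 to 1478 CPM with zileuton, and in 2018 to 22.7 to 1087 CPM in sham and 1177 to 1354 CPM in TBI.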
